A study of Mus musculus with 24 samples.

Results

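Immediate early genes are switched on within minutes of a stimulus, without new protein synthesis, when kinase cascades reach transcription factors already bound at their promoters. Serum response factor with its ternary complex partners acts at CArG boxes, and the factor CREB acts at cyclic AMP response elements. Most of the genes encode transcription factors themselves, and their transcripts are unstable, so a level at rest is low and mirrors recent signalling. In skeletal muscle the NR4A receptors are known to respond to contraction and adrenergic input, and in the heart FOS, JUN and EGR1 are known to respond to load.

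The 10 genes described here were found by symbol in a gene count table of 55401 genes. They are the FOS family members Fos and Fosb and the JUN family members Jun and Junb, which pair to form the AP-1 factor. With them are the zinc finger factors Egr1 and Egr2, the orphan nuclear receptors Nr4a1 and Nr4a3, the stress-responsive factor Atf3, and Ier2, a small nuclear protein. All 10 were present, and all 10 passed the low-count filter in every comparison.

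The libraries were made from total RNA after removal of ribosomal RNA. They come from the kidney, skeletal muscle and left ventricle of 8 mice of the strain C57BL6/J. The mice were 16.5 or 86 weeks old, with 2 females and 2 males at each age, and each mouse gave 1 library per tissue, 24 in all. No treatment or genetic change is given for any of the groups. The muscle that was sampled, the time of day and the interval from death to freezing are not given in the sources used here. At 16.5 weeks the females carry numbers 14 and 15 and the males 19 and 20, and at 86 weeks the females carry 11 and 12 and the males 14 and 17, so the number 14 stands for 2 different mice.

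Library totals ran from 52602585 to 103797551 counts. The defining markers matched the labelled tissues: summed cardiomyocyte markers lay at 41869 to 60258 CPM (each library's counts scaled to a common total) in left ventricle and at most 597 elsewhere, and summed proximal tubule markers at 7059 to 10728 CPM in kidney and at most 57.5 elsewhere. Summed fast-fibre markers reached 108293 to 161047 CPM in skeletal muscle, where slow-fibre markers summed to only 8.88 to 39.7 CPM. No marker was at 0 in any library.

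Levels below are in CPM scaled by TMM factors (trimmed mean of M-values) computed over all 24 libraries. Changes are log2 differences with standard errors from edgeR's quasi-likelihood test, with p-values adjusted by Benjamini-Hochberg over all genes tested and called under 0.05. A positive age change is higher at 86 weeks, and a positive sex difference is higher in males.

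RefSeq promoter windows (build GRCm38.p6, 250 bases before to 50 after a start site) were matched for 8 of the 10 genes; Egr1 and Ier2 had no entry. The stretches of 4 genes are shown. The levels of Fos, Nr4a1 and Nr4a3 separate tissues, ages or sexes below, and the window of Egr2 alone held a CArG box. Jun and Atf3 also separate tissues or sexes below but are not shown. The Jun window held none of the motifs searched, and the Atf3 stretch held none. All 4 stretches shown are read 5′ to 3′ on the plus strand of the genome, which is the coding strand for their genes. Capitals mark the cyclic AMP response element half-site TGACG or its complement CGTCA, the CArG box in Egr2 and TATAAA in Fos. Fos is taken from chr12:85473770-85473889, Nr4a3 from chr4:48045055-48045152, Nr4a1 from chr15:101266726-101266845 and Egr2 from chr10:67537749-67537868. The Fos and Nr4a3 stretches lie before the annotated gene, and those of Nr4a1 and Egr2 lie in an intron of a longer transcript of the gene.
Fos: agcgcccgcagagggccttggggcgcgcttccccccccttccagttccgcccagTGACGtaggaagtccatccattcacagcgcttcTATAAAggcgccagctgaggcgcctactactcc
Nr4a1: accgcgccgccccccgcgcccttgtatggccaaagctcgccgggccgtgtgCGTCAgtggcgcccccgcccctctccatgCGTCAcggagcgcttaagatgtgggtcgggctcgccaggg
Nr4a3: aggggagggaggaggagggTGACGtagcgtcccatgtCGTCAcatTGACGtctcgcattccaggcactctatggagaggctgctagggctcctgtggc
Egr2: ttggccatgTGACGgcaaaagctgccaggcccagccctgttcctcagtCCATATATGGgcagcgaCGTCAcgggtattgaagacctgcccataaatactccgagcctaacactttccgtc

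The half-site TGACG, searched on both strands, occurred in the windows of 7 of the 8 matched genes: Fos, Fosb, Junb, Egr2, Nr4a1, Nr4a3 and Atf3. It occurred in 20.8% of all 32851 windows. A gene counts here when any of its windows holds the letters, and Egr2 has several windows. The shares are of single windows, so the 2 measures are unlike for every motif. The full element TGACGTCA was in none of the 8 and in 1.79% of all windows, and the AP-1 site TGACTCA in none of the 8 and in 5.2% of all. A CArG box was found in Egr2 alone and in 1.63% of all windows, and TATAAA in Fos and Junb and in 13.6% of all. These are matches of letters within short windows and do not show binding.

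Levels were compared between genes per kilobase of annotated exon. Jun had the highest mean in all 3 tissues, at 16.1 ± 4.18 CPM per kb (SD, n = 8) in left ventricle, 20.9 ± 3.28 in muscle and 7.43 ± 1.68 in kidney. Egr2 had the lowest mean in all 3, between 0.194 and 0.283 CPM per kb. Nr4a1 stood second in skeletal muscle at 12.8 ± 4.39 CPM per kb, but behind Jun, Ier2, Junb and Egr1 in left ventricle at 1.92 ± 0.888 and in kidney at 0.915 ± 0.177.

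Ier2 and Junb followed Jun in left ventricle and kidney, at 4.09 ± 0.699 and 2.37 ± 0.377 CPM per kb in left ventricle and 2.68 ± 0.390 and 2.17 ± 0.260 in kidney. In left ventricle Egr1, Nr4a1 and Atf3 stood at 1.97, 1.92 and 1.91 CPM per kb and Fosb and Fos at 0.853 and 0.852, so neighbours within these sets differed by less than their SDs. In muscle Junb, Fos, Atf3 and Egr1 lay between 1.16 and 1.44 CPM per kb, again closer together than their SDs. In kidney Egr1 and Nr4a1 at 0.976 and 0.915, and Fosb and Atf3 at 0.675 and 0.667, did not differ beyond their spread either.

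**Figure D1:**
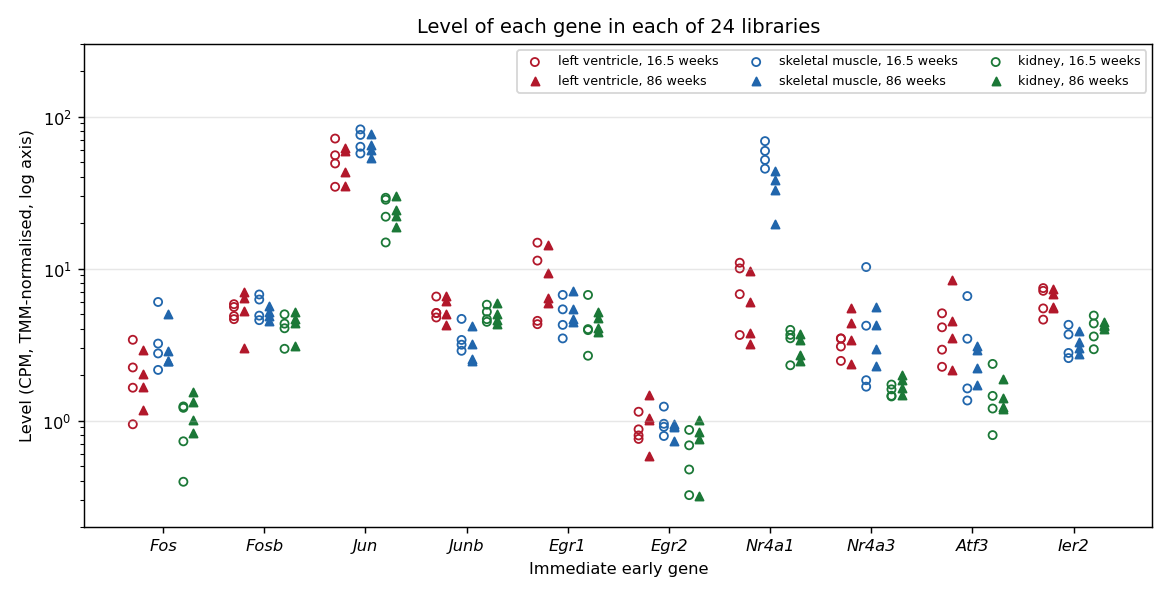
Level of each gene in each library, in CPM on a log axis, by tissue (colour) and age (open circles 16.5 weeks, filled triangles 86 weeks). Each mark is 1 library. Nr4a1 in skeletal muscle (19.6 to 68.9 CPM) stands above every left ventricle and kidney library, and Jun is lowest in kidney (14.8 to 29.9 CPM).

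The first comparison asked which of the genes differ between the tissues of the same mice. The main fit held no term for the mouse, and a fit with the mouse as a block was an alternative. In kidney, 7 of the 10 were lower than in left ventricle and 6 were lower than in skeletal muscle, and only Junb was higher in kidney than in muscle. Left ventricle had more Ier2, Egr1 and Junb than skeletal muscle, and less Nr4a1, Fos and Jun. In bulk tissue, fewer cells of a type and less RNA per cell cannot be told apart.

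Over all genes, 33.6% passed the test for kidney against left ventricle, 43.5% for kidney against skeletal muscle and 26.6% for left ventricle against skeletal muscle. In a fit of the genes with at least 1 CPM in 4 libraries, 15615, 18125 and 13141 of 22801 passed for the same pairs. The counts of 7, 7 and 6 of 10 are thus set against a background in which tissue differences are common. No excess is read from them. The median log2 difference of the 10 genes was -0.96, -0.73 and -0.04, beside -0.10, -0.23 and -0.12 over all genes tested. The 3 comparisons share libraries, so they are not independent of each other.

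Complete separation of 8 libraries from 8 was rarer. It held for 2 genes between kidney and left ventricle (18.7% of all genes tested), for 3 between kidney and skeletal muscle (20.9% of all) and for 2 between left ventricle and skeletal muscle (14.2% of all). These shares are close to those of genes at large.

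Fos, the inducible partner of JUN proteins in AP-1, had a lowest, median and highest level of 0.945, 1.85 and 3.40 CPM in left ventricle. In skeletal muscle they were 2.15, 2.82 and 6.02 CPM, and in kidney 0.396, 1.11 and 1.54 CPM. Every kidney library lay below every muscle library, while left ventricle overlapped both. The difference was -1.78 ± 0.25 (SE) for kidney against muscle (edgeR adjusted p = 8.77e-07), -0.94 ± 0.25 for kidney against left ventricle (edgeR adjusted p = 0.00317) and -0.84 ± 0.24 for left ventricle against muscle (edgeR adjusted p = 0.00835).

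Fosb, its close relative, was more even. It spanned 3.001 to 6.97 CPM in left ventricle, 4.50 to 6.75 in muscle and 2.96 to 5.21 in kidney, and the groups overlapped in every pair. Kidney was lower than muscle by a small margin, -0.38 ± 0.15 (edgeR adjusted p = 0.0357), in 6 of 8 mice. That call was lost in 6 of 8 fits that left out 1 mouse, and without normalization factors the difference was 0.22 (edgeR adjusted p = 0.414).

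Jun, the core AP-1 subunit, had a lowest, median and highest level of 34.5, 52.3 and 71.6 CPM in left ventricle, 53.0, 63.9 and 82.3 in muscle and 14.8, 23.3 and 29.9 in kidney. Kidney lay below both other tissues without overlap. The differences were -1.09 ± 0.14 against left ventricle (edgeR adjusted p = 3.8e-07) and -1.53 ± 0.14 against muscle (edgeR adjusted p = 7.32e-10). The difference between left ventricle and muscle, -0.44 ± 0.14 (edgeR adjusted p = 0.0184), held in 6 of 8 mice and in 6 of 8 fits that left out 1 mouse. The antisense gene Junos overlaps Jun, and without a stated strand setting its reads cannot be told apart from those of Jun. Junos had mean levels of 3.14 CPM in left ventricle, 6.27 in muscle and 2.75 in kidney, in the same order as Jun.

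Junb, which can restrain JUN activity in AP-1, showed another order. Its lowest, median and highest levels were 4.27, 5.10 and 6.62 CPM in left ventricle, 4.29, 4.85 and 5.89 in kidney and 2.46, 3.18 and 4.66 in muscle. It was higher in left ventricle than in muscle in 8 of 8 mice (0.66 ± 0.13, edgeR adjusted p = 0.000279) and higher in kidney than in muscle in 7 of 8 mice (0.56 ± 0.13, edgeR adjusted p = 0.00107). Kidney and left ventricle differed by -0.10 ± 0.13 (edgeR adjusted p = 0.651). The 3′ end of Junb overlaps Prdx2 on the other strand, an antioxidant enzyme gene with mean levels of 118 CPM in left ventricle, 63.1 in kidney and 32.9 in muscle. Its part in the Junb values was not tested.

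Egr1, a zinc finger factor, spanned 4.30 to 14.8 CPM in left ventricle with a median of 7.85. It spanned 3.47 to 7.14 CPM in muscle, median 5.04, and 2.67 to 6.70 in kidney, median 4.02. Left ventricle had the widest range and the highest values, but its lowest libraries fell inside the other ranges. Even so it exceeded muscle and kidney in 8 of 8 mice each, with 0.70 ± 0.23 against muscle (edgeR adjusted p = 0.0253) and a kidney difference of -0.99 ± 0.23 (edgeR adjusted p = 0.0012). The difference from muscle was called in 6 of 8 fits that left out 1 mouse. With 86-week replicate 12 left out it was 0.53 (edgeR adjusted p = 0.165).

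Egr2, the relative of Egr1 known from myelinating cells, had 27 to 115 counts per library, the fewest of the 10. Its median levels were 0.940 CPM in left ventricle, 0.915 in muscle and 0.720 in kidney, with overlap in every pair. Kidney stood at -0.51 ± 0.22 against left ventricle (edgeR adjusted p = 0.0821) and -0.52 ± 0.22 against muscle (edgeR adjusted p = 0.0619). With the mouse as a block, both passed, at -0.55 and -0.58 (edgeR adjusted p = 0.0459 and 0.0277).

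The largest tissue difference was in Nr4a1, a nuclear receptor that acts without a known ligand. Its lowest, median and highest levels were 19.6, 44.7 and 68.9 CPM in skeletal muscle, 3.19, 6.41 and 10.9 in left ventricle and 2.31, 3.44 and 3.95 in kidney. Every muscle library exceeded every library of the other tissues. Left ventricle had 0.147 times the muscle level (-2.76 ± 0.22, edgeR adjusted p = 3.63e-11) and kidney 0.0724 times (-3.79 ± 0.23, edgeR adjusted p = 6.02e-14). Kidney was also below left ventricle in 8 of 8 mice (-1.02 ± 0.21, edgeR adjusted p = 0.000256), although their ranges overlapped. Fast-fibre markers summed to at most 44.1 CPM in a left ventricle library, against a median of 143837 CPM in muscle.

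Its relative Nr4a3 did not share that muscle excess. It spanned 2.35 to 5.52 CPM in left ventricle (median 3.41), 1.67 to 10.2 in muscle (median 3.59) and 1.44 to 1.99 in kidney (median 1.61). Kidney was the lowest and the least variable, below left ventricle without overlap (-1.05 ± 0.19, edgeR adjusted p = 3.41e-05) and below muscle in 8 of 8 mice (-1.19 ± 0.19, edgeR adjusted p = 5.9e-06). Left ventricle and muscle differed by -0.14 ± 0.18 (edgeR adjusted p = 0.675).

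Atf3, a CREB-related factor induced by many stresses, had a lowest, median and highest level of 2.14, 3.80 and 8.40 CPM in left ventricle. They were 1.35, 2.56 and 6.59 CPM in muscle and 0.802, 1.31 and 2.36 in kidney. Kidney was below each of the others in 8 of 8 mice, at -1.51 ± 0.23 against left ventricle (edgeR adjusted p = 4.52e-06) and -0.94 ± 0.23 against muscle (edgeR adjusted p = 0.00152). Left ventricle against muscle gave 0.56 ± 0.23 (edgeR adjusted p = 0.0699).

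Ier2 had a lowest, median and highest level of 4.61, 6.17 and 7.43 CPM in left ventricle, 2.58, 3.16 and 4.26 in muscle and 2.94, 4.20 and 4.90 in kidney. Every left ventricle library exceeded every muscle library (0.86 ± 0.13, edgeR adjusted p = 2.86e-06). Kidney was lower than left ventricle in 8 of 8 mice (-0.59 ± 0.12, edgeR adjusted p = 0.000309). Against muscle it was higher in 7 of 8 mice, at 0.27 ± 0.13 (edgeR adjusted p = 0.0815), and with the mouse as a block this passed at 0.28 (edgeR adjusted p = 0.0375).

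**Figure D2:**
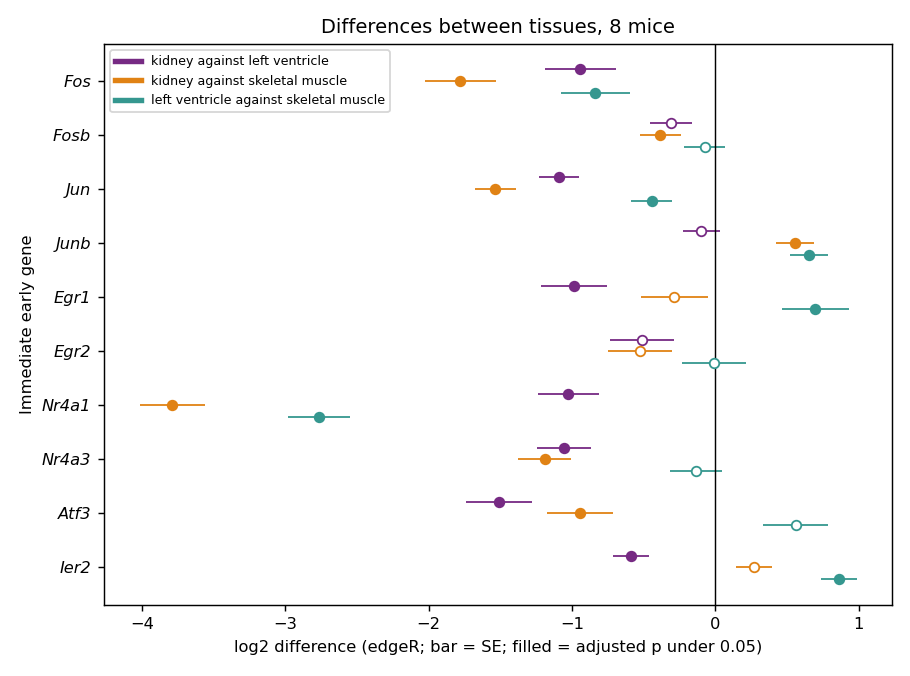
Log2 difference of each gene for the 3 tissue pairs, from the fit of all 24 libraries; bars are standard errors and filled marks have an edgeR adjusted p under 0.05. Nr4a1 stands apart at -3.79 and -2.76 in the pairs with skeletal muscle, and all 10 kidney against left ventricle differences lie below 0.

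Scaling bears on these differences, because the tissues differ in composition. TMM factors were 1.11 to 1.53 in kidney, 0.862 to 1.12 in left ventricle and 0.759 to 1.07 in muscle. Without them the median of all genes shifted by 0.27, 0.59 and 0.32 on the log2 scale for the 3 pairs, and the genes called higher made up 76.0%, 86.9% and 81.3% of all calls in place of 57.4%, 50.8% and 57.7%. The 10 genes then split into 0 higher and 7 lower for kidney against left ventricle, 2 higher (Junb and Ier2) and 4 lower for kidney against muscle, and 4 higher and 1 lower (Nr4a1) for left ventricle against muscle.

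The second comparison asked whether any of the genes changed between 16.5 and 86 weeks within a tissue. By edgeR, none of the 10 passed in any of the tissues. Few genes passed the age test at all: 0.0183% of those tested in muscle, 0.0741% in left ventricle and 0.112% in kidney. With so few mice per age, and with counts that depended on the method, these shares do not show how many genes changed. At an unadjusted p under 0.05 there were 0 of the 10 in left ventricle (3.37% of all genes tested), 1 in muscle (5.51% of all) and 0 in kidney (7.96% of all). Limma-voom called 0 in each tissue, and DESeq2 called 0 in left ventricle and kidney and 1, Nr4a1, in muscle.

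Nr4a1 in skeletal muscle was that gene. Its levels at 16.5 weeks were 51.8 and 68.9 CPM in the females and 59.4 and 45.4 in the males. At 86 weeks they were 44.1 and 38.2 CPM in the females and 32.9 and 19.6 in the males. Every 86-week library lay below every 16.5-week library, with means of 33.7 ± 10.4 and 56.4 ± 10.1 CPM (SD, n = 4 each), and the lowest was that of 86-week replicate 17. It was the only 1 of the 10 whose ages did not overlap in muscle, where 2.68% of all genes tested were so separated; in left ventricle and kidney 0 of the 10 were, beside 2.1% and 3.41% of all.

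The change was -0.76 ± 0.16, or 0.590 times, with an unadjusted p of 3.88e-04 and an edgeR adjusted p of 0.287. DESeq2 gave -0.78 and an adjusted p of 0.0135, in a test that called 0.333% of genes. Leaving out each mouse in turn gave -0.89 to -0.61, with edgeR adjusted p from 0.192 to 0.687. Summed fast-fibre markers in these libraries overlapped between the ages, at 140159 to 161047 CPM at 16.5 weeks and 108293 to 147354 at 86 weeks, and so did summed endothelial markers, at 93.6 to 126 and 65.4 to 142. Markers of other tissues and cells reached higher at 86 weeks, again with overlap: cardiomyocyte sums were 80.0 to 225 and 56.5 to 597 CPM, slow-fibre sums 9.33 to 11.3 and 8.88 to 39.7, adipocyte sums 7.26 to 62.4 and 13.9 to 106, and red blood cell sums 16.4 to 39.7 and 22.6 to 74.7. None of these markers passed the age test in muscle. Their part in the Nr4a1 values was not tested.

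The age change of Nr4a1 was -0.47 ± 0.31 in left ventricle and -0.08 ± 0.18 in kidney, with ages overlapping in both. In left ventricle its levels were 10.02, 6.78, 3.65 and 10.9 CPM at 16.5 weeks and 3.19, 9.65, 6.04 and 3.78 at 86 weeks. A test of whether the age change differs between tissues passed for none of the 10 (0.0319% of all genes tested), and for Nr4a1 it gave an unadjusted p of 0.295 and an edgeR adjusted p of 1.

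For the other 9 genes no age change passed the test. In left ventricle the largest were Atf3 at 0.37 ± 0.30 and Nr4a3 at 0.33 ± 0.22, and in kidney Fos at 0.51 ± 0.27 and Egr2 at 0.34 ± 0.35. The highest left ventricle value of Atf3, 8.40 CPM, came from 86-week replicate 12. In muscle the other 9 lay between -0.20 (Atf3) and 0.14 (Egr1). The median age change of the 10 genes was 0.04 in left ventricle, -0.12 in muscle and 0.11 in kidney, beside 0.01, 0.02 and 0.02 over all genes tested. Without normalization factors the muscle median of all genes shifted by 0.12, and 6 of the 10 genes then had a positive age change there in place of 1.

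**Figure D3:**
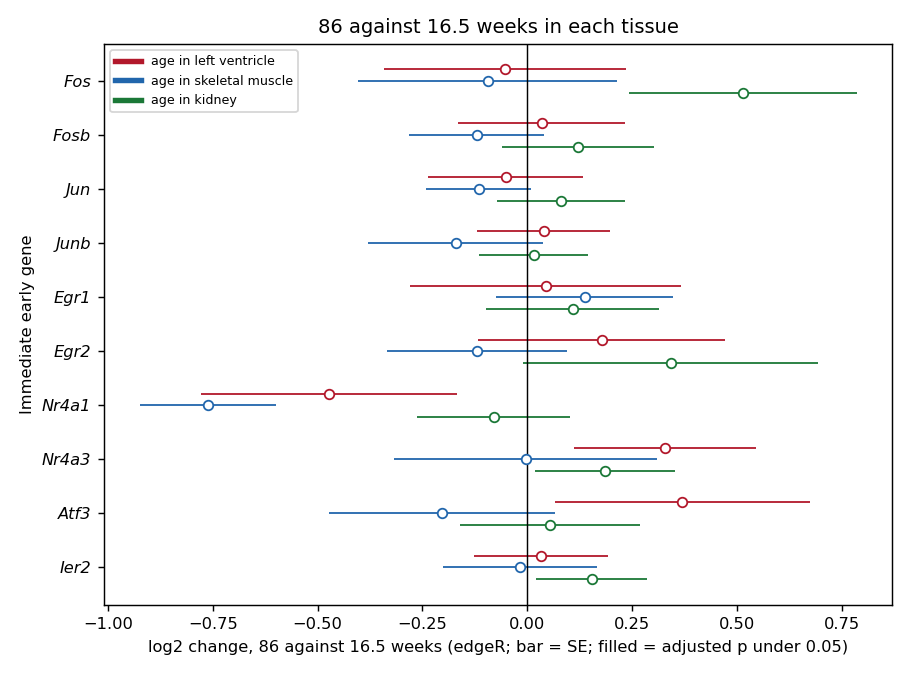
Log2 change at 86 against 16.5 weeks in each tissue, with standard errors, 4 mice per age. All marks are open, since none had an edgeR adjusted p under 0.05; Nr4a1 in skeletal muscle lies farthest from 0, at -0.76.

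The third comparison was between males and females within a tissue. In skeletal muscle Nr4a3 was lower in males and was the only one of the 10 past the edgeR test, in a tissue where 1.36% of genes passed. None passed in left ventricle, where 0.871% of all genes did, or in kidney, where 7.58% did. The sexes did not overlap for 2 of the 10 in muscle, Nr4a3 and Atf3, beside 6.28% of all genes, and for 2 in kidney, Atf3 and Ier2, beside 10.1% of all genes; in left ventricle they overlapped for all 10, and were apart for 3.5% of all genes. At an unadjusted p under 0.05 the 10 genes gave 3 in muscle (9.62% of all genes tested), 0 in left ventricle (5.1% of all) and 4 in kidney (17.1% of all).

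In muscle, Nr4a3 stood at 4.21, 10.2, 4.27 and 5.59 CPM in the females (16.5-week replicates 14 and 15, then 86-week replicates 11 and 12). In the males it stood at 1.67 and 1.84 CPM at 16.5 weeks and 2.29 and 2.97 at 86 weeks. All 4 females exceeded all 4 males, and 16.5-week replicate 15 was the highest. Males had 0.378 times the female level (-1.40 ± 0.31, edgeR adjusted p = 0.0381). Leaving out 86-week replicate 12 or 14, or 16.5-week replicate 19 or 20, ended the call, as did no normalization factors, limma-voom, no low-count filter and a minimum of 1 CPM in 4 libraries (adjusted p from 0.0611 to 0.114). Over the 8 fits without 1 mouse the difference ranged from -1.64 to -0.97. Without 16.5-week replicate 15 it was -0.97 and remained called. Nr4a3 did not differ between the sexes in left ventricle (-0.19 ± 0.22, edgeR adjusted p = 1) or kidney (-0.05 ± 0.17, edgeR adjusted p = 0.948) past the test; the difference between tissues was not tested.

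Atf3 in muscle had the same arrangement. The females stood at 3.45, 6.59, 2.92 and 3.07 CPM and the males at 1.35, 1.63, 2.20 and 1.72, in the order of mice used for Nr4a3. The sexes did not overlap, and the same mouse was highest. The difference was -1.12 ± 0.27 (edgeR adjusted p = 0.0713); DESeq2, which called 1.87% of genes for sex in muscle, gave -1.15 with an adjusted p of 0.00113.

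Nr4a1 in muscle overlapped between the sexes, at 38.2 to 68.9 CPM in females and 19.6 to 59.4 in males (-0.37 ± 0.16, edgeR adjusted p = 0.468). Summed smooth muscle markers barely overlapped between the sexes in these muscle libraries, at 33.4 to 48.8 CPM in females and 23.8 to 33.5 in males. Summed endothelial markers overlapped at 106 to 142 and 65.4 to 126. None of these 3 and 4 markers passed, and all were lower in males, with median differences of -0.54 and -0.35. At an unadjusted p under 0.05 there were 3 of 3 and 2 of 4, beside 9.62% of all genes tested. Their part in the sex differences was not tested.

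**Figure D4:**
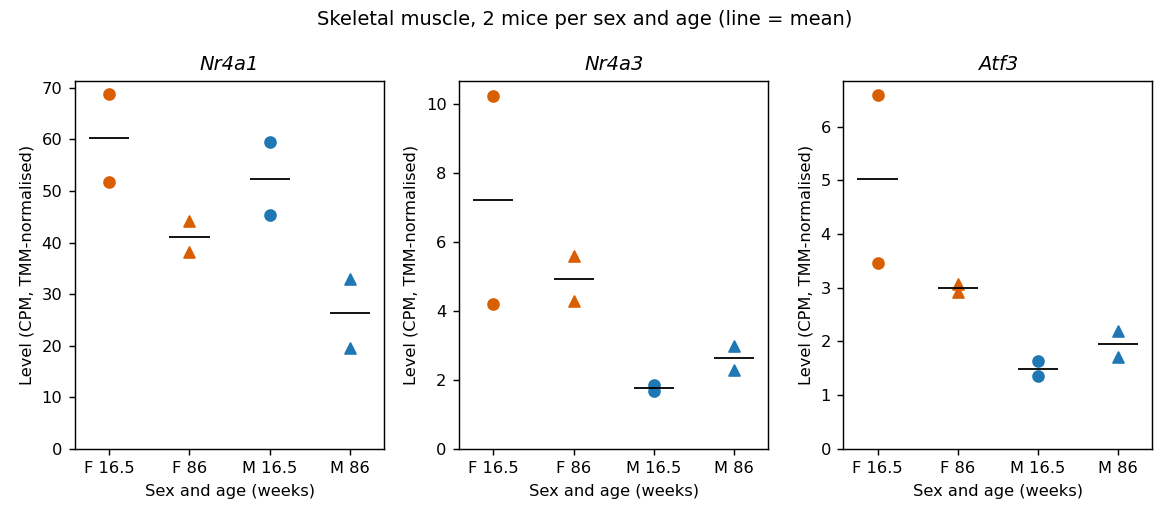
Levels of Nr4a1, Nr4a3 and Atf3 in skeletal muscle, in CPM, by sex and age; each mark is 1 mouse and lines are means of 2 mice. Nr4a1 separates the ages (at least 45.4 against at most 44.1 CPM), and Nr4a3 and Atf3 separate the sexes.

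In kidney, Atf3 was 1.45, 2.36, 1.40 and 1.88 CPM in the females and 0.802, 1.20, 1.22 and 1.19 in the males. The lowest female lay above the highest male, and the difference was -0.70 ± 0.22 (edgeR adjusted p = 0.0661). Ier2 was 4.90, 4.35, 4.24 and 4.45 CPM in the females and 2.94, 3.57, 4.02 and 4.17 in the males, again without overlap but by a small margin (-0.32 ± 0.13, edgeR adjusted p = 0.213). Fos (-0.70 ± 0.27, edgeR adjusted p = 0.175) and Jun (-0.37 ± 0.15, edgeR adjusted p = 0.203) overlapped. Jun passed when 86-week replicate 11 was left out, which made it the 1 gene of the 10 called in any of the kidney sex fits without 1 mouse.

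The median sex difference of the 10 genes was -0.20 in left ventricle, -0.15 in muscle and -0.23 in kidney, beside -0.02, 0.03 and -0.02 over all genes. In kidney 9 of the 10 were below 0, Fosb being the exception at 0.21. Other cell markers were apart there too: summed distal tubule and collecting duct markers lay at 1236 to 1562 CPM in females and 864 to 1176 in males, and summed macrophage markers at 60.9 to 101 and 52.9 to 58.9. Their part in these values was not tested.

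Variation between mice of a group was set beside that of other genes. The biological coefficient of variation of a gene was divided by the trend for genes of its abundance. Its median over the 10 genes was 1.26 in left ventricle, 1.11 in muscle and 1.09 in kidney, and over all genes tested 0.946, 0.918 and 0.922. Left ventricle held the highest ratios, first Egr1, at 0.324 against a trend of 0.154, then Nr4a1 with a ratio of 1.91 and Atf3 with 1.69. Junb and Ier2 in left ventricle stayed near the trend, at 1.01 and 1.05, as did Egr2 at 1.02.

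Some libraries held the highest or lowest level for several of the genes. How often the same libraries held such ranks over all genes was not counted. In left ventricle, 86-week replicate 12 was the highest of 8 for Fosb, Junb, Egr2, Nr4a3 and Atf3, and among the top 3 for 9 of the 10 genes. In skeletal muscle, 16.5-week replicate 14 was highest for Fos, Fosb, Jun and Ier2, and 16.5-week replicate 15 for Junb, Nr4a1, Nr4a3 and Atf3 while lowest for Ier2. In kidney, 16.5-week replicate 19 was lowest for Jun, Egr1, Nr4a1, Atf3 and Ier2, and among the bottom 3 for 8 genes. Some mice recurred: replicate 19 at 16.5 weeks was among the bottom 3 for 7 genes in left ventricle and 6 in muscle, and 86-week replicate 12 was among the top 3 for 7 genes in kidney. The left ventricle library of 86-week replicate 12 also had the highest Acta2, at 70.1 CPM against 18.0 to 36.9 in the other 7, and the highest summed red blood cell markers, at 350 CPM against 193 to 277. Its summed smooth muscle markers were 114 CPM against 52.5 to 106. Summed atrial markers were 41.2 CPM there, up to 92.1 in 3 other libraries and at most 4.43 in the remaining 4. The part of these markers in the early gene values was not tested.

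**Figure D5:**
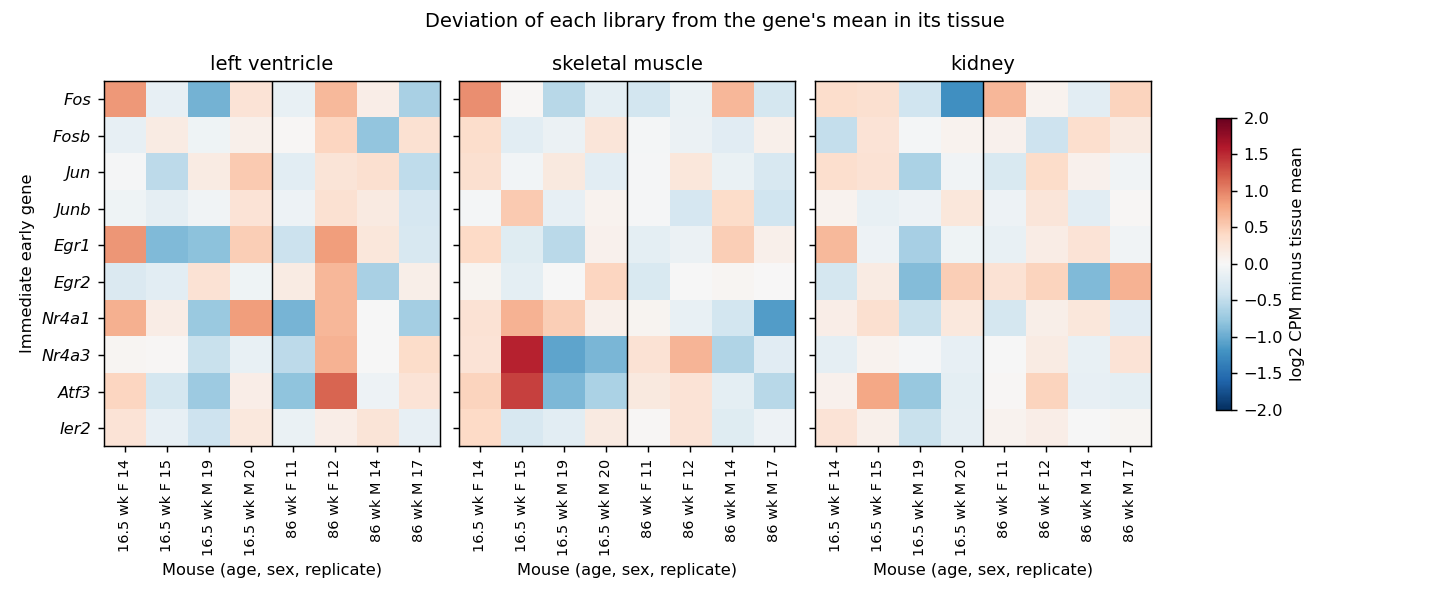
Deviation of each library from the mean of its tissue, as log2 CPM, for each gene (rows) and mouse (columns, with age, sex and replicate number). Red is above and blue below the tissue mean; 86-week female 12 in left ventricle is red for nearly all genes, and 16.5-week female 15 in muscle is red mainly for Nr4a1, Nr4a3, Atf3 and Junb.

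Pairs of the 10 genes were correlated over the 8 mice of a tissue, 135 correlations in all. Leaving out the 2 pairs whose sexes form separate clusters, Nr4a3 with Atf3 in muscle and Atf3 with Ier2 in kidney, 95 of 133 were positive, and none passed Benjamini-Hochberg adjustment over the 135 (smallest adjusted exact permutation p 0.128). In left ventricle Fos and Egr1 had a Pearson r of 0.877 (exact permutation p = 0.00474, adjusted 0.128) and a Spearman rho of 0.881 (exact permutation p = 0.00724, adjusted 0.196). Without the 2 mice farthest from the median of Fos, r was 0.793. Jun and Junb there gave r of 0.897 (exact permutation p = 0.00412, adjusted 0.128) and rho of 0.905 (exact permutation p = 0.00456, adjusted 0.196), and r of 0.834 without the 2 farthest mice.

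The same gene was also followed across tissues of the same mouse, in 30 correlations. Leaving out Atf3 in muscle and kidney, 23 of 29 were positive and none passed adjustment over the 30. The counts of positive r, here and within tissues, were not set beside those of other genes. Egr1 in muscle and kidney had r of 0.854 (exact permutation p = 0.00786, adjusted 0.118) and rho of 0.881 (exact permutation p = 0.00724, adjusted 0.109), and r of 0.770 without the 2 farthest mice. In both tissues 16.5-week replicate 14 and 86-week replicate 14 had the 2 highest Egr1 levels, at 6.71 and 7.14 CPM in muscle and 6.70 and 5.14 in kidney, and 16.5-week replicate 19 the lowest, at 3.47 and 2.67. Atf3 in muscle and kidney was left out, though it was the only 1 of the 30 past adjustment (r of 0.919, adjusted exact permutation p = 0.0283). It lay higher in all 4 females in both tissues, so the sexes form separate clusters, and 4 mice are too few for a value within a sex.

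The genes whose deviations were most like the mean of the 10 over the 24 libraries, among 14598 ranked, were Sema4c (r = 0.849), Btg2 (0.846), Grip2 (0.792), Dnajb5 (0.782), Acta2 (0.779), Grrp1 (0.763), Fat4 (0.759), Fv1 (0.751), Serpinh1 (0.745) and Zxda (0.743). Btg2 is itself an early response gene and Acta2 is smooth muscle actin. Of 47 other stimulus-induced genes that could be ranked, the median r was 0.290, beside 0.153 over all genes, and 12 exceeded the 95th percentile of all genes, 0.509. Fosl2 (0.666) and Ier5 (0.652) followed Btg2. The composition of a library can enter these r and its part was not tested, so they are descriptions.

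A list of 50 other stimulus-induced genes, such as dual-specificity phosphatases, KLF and GADD45 genes, was read from the same fits. For age, 0 passed in left ventricle (0.0741% of all genes tested), 0 in muscle (0.0183% of all) and 1 in kidney (0.112% of all). DESeq2 called 4 in muscle (0.333% of all genes) and 4 in kidney (0.821% of all), and a fit of all 24 libraries called 1 and 0. The gene that passed by edgeR in kidney was Errfi1, a feedback inhibitor of the EGF receptor. In kidney it stood at 298, 385, 378 and 282 CPM at 16.5 weeks and 142, 147, 222 and 214 at 86 weeks, without overlap (-0.88 ± 0.14, edgeR adjusted p = 0.0337), and the call held in 2 of 8 fits that left out 1 mouse. In muscle the 2 smallest p-values were those of Sgk1, a kinase induced by glucocorticoids (-0.82 ± 0.14, edgeR adjusted p = 0.0991), and Gadd45g, a growth arrest gene (-1.99 ± 0.36, edgeR adjusted p = 0.145). In left ventricle they were those of Cebpb (-0.65 ± 0.20, edgeR adjusted p = 0.747) and Ccn2 (0.46 ± 0.17, edgeR adjusted p = 1).

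For sex, 0 of the 50 passed in left ventricle (0.871% of all genes tested), 2 in muscle (1.36% of all) and 11 in kidney (7.58% of all). In the kidney fit of genes with at least 1 CPM in 4 libraries, 4261 of 20531 genes passed, and 14 of this list. No excess is read from these counts. In muscle males had less Cebpb (-1.25 ± 0.19, edgeR adjusted p = 0.00585) and more Nfkbiz, an inflammatory response regulator (0.88 ± 0.14, edgeR adjusted p = 0.00724). In kidney 3 were higher in males, the MAP kinase phosphatase gene Dusp4 (1.01 ± 0.12), Gadd45a (0.64 ± 0.13) and Plk2 (0.53 ± 0.12). Another 8 were lower, led by Cebpd (-1.70 ± 0.18), Sgk1 (-1.10 ± 0.26), Txnip (-0.55 ± 0.14) and Dusp6 (-0.51 ± 0.10). Over the alternatives the kidney count ran from 4 to 14.

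Of 26 genes upstream of these promoters, among them serum response factor, its partners, CREB family members and MAP kinases, 0 passed for age in any tissue. For sex, 0 passed in left ventricle and muscle. In kidney 2 passed, beside 7.58% of all genes tested: Mapk14, which encodes p38 (0.38 ± 0.09), and Map2k1, which encodes MEK1 (-0.36 ± 0.10). The kidney count ran from 0 to 6. It was 0 in the fit of all libraries and without 16.5-week replicate 14 or 19, and 6 without normalization factors. Between tissues, 20, 22 and 15 of the 26 passed for kidney against left ventricle, kidney against muscle and left ventricle against muscle. Of the 50 other stimulus-induced genes 40, 35 and 35 passed, and of all genes tested 33.6%, 43.5% and 26.6%. In the fit of genes with at least 1 CPM in 4 libraries, 15615, 18125 and 13141 of 22801 passed. No excess is read from the counts of either list. In kidney against left ventricle the 50 split into 16 higher and 24 lower, while none of the 10 immediate early genes was higher.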

How the data were processed

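The authors deposited a table of whole-number read counts per gene for 24 libraries; alignment with STAR 2.7.6a, assembly or quantification with StringTie 2.1.1 and the build GRCm38.p6 are named per the submitters' processing notes. The strand setting, the annotation release and how counts were taken from StringTie are not given in the sources used here. All 24 columns matched a sample by its title. Of the gene IDs, 54349 matched GENCODE M21 with their version and 55141 without it, which gave exon lengths and overlaps.

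Counts were tested in R 4.3.3 with edgeR 4.0.16 (filterByExpr, TMM, glmQLFit, glmQLFTest). Age and sex were fitted within each tissue (8 libraries, 5 residual degrees of freedom) with both as additive terms. Tissues were compared in 1 fit of all 24 libraries with age and sex terms per tissue and no term for the mouse (15 residual degrees of freedom). Fits were also run on simulated counts with the same dispersion for every gene and no sex effect, which does not give the power for these genes. Alternatives were other size factors, DESeq2 1.42.0, limma-voom 3.58.1, other filters, other terms and leaving out each mouse. The log2 CPM used a prior count of 2. Correlations used exact permutation tests (scipy 1.17.1).

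The members and gene lists were chosen with earlier results of these data known. The genes named are the 10 members in every comparison, up to 4 per direction past the test from each other list, or else the 2 with the smallest p, and the 10 most correlated genes. Libraries of a mouse share its number in the labels, so numbers pair tissues within an age. Over 19698 genes the deviations of a mouse's libraries in 2 tissues correlated with r from -0.19 to 0.37. Mice are separate animals, and tests within a tissue set a group difference against the spread that age and sex leave between these 8. The fit of all 24 libraries treated the libraries of a mouse as independent, so the p-values between tissues ignore that pairing.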

Additional observations from a re-analysis of the deposited data

Results flagged for a closer look

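In skeletal muscle of the 86-week mice, Fos in replicate 14 stood at 5.01 CPM, with the next highest mouse at 2.88 CPM. The gap is 0.8293 of the range of the 4 mice, marginally above the limit for a sample far from the others. Over the 10 genes, 60 groups of 4 mice were examined and 1 was picked out; chance picks out about 1 in 20 such groups. The same library also had the highest Egr1 in muscle, 7.14 CPM.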

How the results depend on the processing

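Of the 1718 single-gene values under alternatives, 1541 kept their direction and side of the threshold, 37 lost a call, 24 gained one and 116 changed sign. Of these, 115 were called neither before nor after, and 1 had been called: Fosb, kidney against skeletal muscle, at 0.22 (edgeR adjusted p = 0.414) without normalization factors. The causes were not tested. For age in skeletal muscle, DESeq2 called 1 of the 10 genes in place of 0. For sex in skeletal muscle, where 1 was called, RLE size factors and DESeq2 called 2, and no normalization factors, limma-voom, no low-count filter and a minimum of 1 CPM in 4 libraries called 0; leaving out each mouse gave 0 to 1. For sex in kidney a minimum of 1 CPM called 1, Atf3, in place of 0, and leaving out each mouse gave 0 to 1. Kidney against left ventricle called 4 in place of 7 in the 86-week mice alone, without Fos, Nr4a1 and Ier2. With the mouse as a replicate block the tissue pairs called 8, 9 and 6 in place of 7, 7 and 6, the test of age changes between tissues 0, and no other call changed.

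Age counts over all genes moved more. In left ventricle 33 became 70 without normalization factors, 73 with DESeq2, 18 without a filter and 117 without 86-week replicate 17; in muscle 8 became 89 with DESeq2, 25 with all libraries fitted together, 0 without a filter and 1 without a sex term, and 1 to 43 on leaving out each mouse; in kidney 50 became 231 with DESeq2, 28 with all libraries fitted together, 1 without a filter, 0 without a sex term, and 19 to 69 on leaving out each mouse. The test of age changes between tissues went from 15 to 7 with RLE size factors, 33 without normalization factors, 62 with DESeq2, 5 without a filter, 45 with the 1 CPM minimum and 4 to 26 on leaving out each mouse. Sex counts in left ventricle went from 388 to 22 with limma-voom, 18 with the 1 CPM minimum, 725 without a filter, 702 with all libraries together and 161 to 374 on leaving out each mouse; in muscle from 594 to 297, 918, 1091 and 345 to 718 under the last 4. Without normalization factors, higher calls went from 52.0% to 78.8% for age in kidney, from 75.0% to 87.5% for age in muscle and from 49.7% to 35.9% for sex in kidney. Depth limits Egr2 most, at 27 to 115 counts per library.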

Other observations

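Heat shock genes, which also respond within minutes to stress or handling, were read as a list of 8. For age 0 of 8 passed in each tissue, with Hspa1a at 0.03 ± 0.15 in left ventricle, -0.01 ± 0.16 in muscle and -0.17 ± 0.12 in kidney. For sex 0 of 8 passed in each tissue. In left ventricle all 8 were below 0 in males, with a median of -0.26 beside -0.02 over all genes tested. In muscle 1 of the 8 was above 0 and in kidney 5. At an unadjusted p under 0.05 there were 4 of 8 in left ventricle, where 5.1% of all genes tested were. There were 3 in muscle (9.62% of all) and 4 in kidney (17.1% of all). Between tissues 7, 7 and 6 of the 8 passed for kidney against left ventricle, kidney against muscle and left ventricle against muscle. Over all genes tested the shares were 33.6%, 43.5% and 26.6%. In the fit of genes with at least 1 CPM in 4 libraries, 15615, 18125 and 13141 of 22801 passed, so no excess is read from these counts. In each of the first 2 pairs, 5 of the 7 were higher in kidney.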
